A study of Mus musculus with 8 samples.

Results

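Expression of 9 genes of the transforming growth factor beta (TGF-beta) and bone morphogenetic protein (BMP) pathways was followed in 8 bulk RNA-seq libraries of mouse liver tumour organoids. The genes were picked by symbol from the 45777 genes counted in each library. They comprise the ligand genes Tgfb1, Tgfb2, Tgfb3, Inhba, Bmp2 and Bmp4, the BMP targets Id1 and Id2, and Smad7, which encodes an inhibitor of the pathway. All 9 passed the filter on low counts and were among the 17038 genes tested.

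Organoids are cultures that grow in 3 dimensions from epithelial cells. The lenvatinib group held 1 library each of the tumour organoid lines SNU-6624 and SNU-6625 exposed to lenvatinib, an inhibitor of several receptor tyrosine kinases that is used against hepatocellular carcinoma (HCC). The resistant group held 1 library each of the lenvatinib-resistant derivatives of the same lines, whose treatment label is control. The parental group held 1 control library of each of these lines, SNU-6624 and SNU-6625, and of SNU-6621 and SNU-6622. Every library carries the genotype label WT and the description of an HCC organoid related to metabolic dysfunction-associated steatohepatitis (MASH). The labels used here give neither a dose nor a duration of lenvatinib, and they do not say whether the resistant cultures held the drug at harvest. Nothing in them says that libraries of 1 line came from separate animals or cultures. With 1 library per line and group, p-values of the fit with line as a term measure how far group differences disagree between SNU-6624 and SNU-6625. They do not measure a spread between repeat libraries, and part of that disagreement may be technical.

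Total counts ran from 49.0 to 61.0 megacounts per library, and 3 counts in a library, the floor under a value of 0, came to 0.0492 to 0.0612 CPM (the count scaled to a total of 1 megacount). That floor covers counting error only. Levels are given as CPM after TMM scaling of the 8 libraries. The hepatocyte genes Alb, Cps1 and Serpina1a had 0 counts in every library, whereas Hnf4a, which encodes a liver transcription factor, had 5.45 and 10.02 CPM in the lenvatinib libraries, 108.8 and 137 CPM in the resistant libraries and 87.8 to 147 CPM in the parental libraries. The summed level of 7 biliary and epithelial genes was 3141 to 3181 CPM in the lenvatinib, 12640 to 12710 CPM in the resistant and 7457 to 8829 CPM in the parental libraries. Stellate cells, macrophages and platelets are known sources of TGF-beta in liver. Of 12 stellate cell and fibroblast genes, 8 had at most 3 counts in every library, Pdgfrb and Dcn were at 0 throughout, and the summed level was 0.190 to 0.422 CPM in the lenvatinib, 0.295 to 0.446 CPM in the resistant and 0.570 to 2.34 CPM in the parental libraries. Of 10 macrophage genes, 7 had at most 3 counts in every library, with Ptprc, Adgre1 and Lyz2 at 0, and the summed level, nearly all from Cd68 and Cd14, was 46.8 to 59.95 CPM in the lenvatinib, 87.0 to 176 CPM in the resistant and 57.1 to 167 CPM in the parental libraries. Of 4 platelet and megakaryocyte genes, Gp9 was at 0 throughout, and the summed level was 5.14 to 6.04 CPM in the lenvatinib, 11.1 to 21.0 CPM in the resistant and 5.88 to 299.7 CPM in the parental libraries. The highest value was that of SNU-6621, which had 283.6 CPM of Ppbp but 0.665 CPM of Pf4, less than SNU-6625 at 2.60 CPM. The part of these marker levels in the results below was not tested. In bulk RNA, fewer cells of a type and less RNA per cell cannot be told apart.

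TGF-beta and BMP proteins are secreted dimers of a common family that bring together type I and type II receptor serine kinases. TGF-beta and activin receptors phosphorylate SMAD2 and SMAD3, BMP receptors phosphorylate SMAD1 and SMAD5, and both sets of SMADs enter the nucleus with SMAD4. In liver, TGF-beta slows hepatocyte growth and drives fibrosis, and BMP signals set the level of the iron hormone hepcidin. Tgfb1, Tgfb2 and Tgfb3 encode the TGF-beta isoforms, which are secreted in a latent form, Inhba encodes the subunit of activin A, and Bmp2 and Bmp4 encode closely related BMPs. Id1 and Id2 encode helix-loop-helix proteins without a DNA-binding region that hold back E-box-binding transcription factors, and both are induced by BMP signals. Smad7 encodes an inhibitory SMAD that is itself induced by the pathway and turns the receptors off.

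In the RefSeq annotation of GRCm38.p6, which matched 45679 of the genes counted by identifier, the ligand genes lie at chr7:25687002-25705077 on the plus strand (Tgfb1), chr1:186622787-186709697 on the minus strand (Tgfb2), chr12:86056743-86079041 on the minus strand (Tgfb3), chr13:16004256-16031609 on the plus strand (Inhba), chr2:133552159-133562896 on the plus strand (Bmp2) and chr14:46383525-46390669 on the minus strand (Bmp4). Id1 lies at chr2:152736251-152737410 on the plus strand and Id2 at chr12:25093799-25096092 on the minus strand. In the GENCODE annotation, the whole gene span of Tgfb3, introns included, overlaps that of Ttll5 on the opposite strand over 5149 bases. The span of Bmp4 overlaps that of the antisense gene Gm15222 over 1764 bases. Overlap between exons was not measured. Since the strand setting of the counting is not given in the sources used here, reads of those partners cannot be told apart from reads of the member with certainty. Ttll5 had 655 to 1422 counts and Gm15222 had 3 to 98 counts per library.

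RefSeq promoter windows of 300 bases, 250 before and 50 after the gene start, were at hand for 5 of the 9 genes, namely Tgfb1, Tgfb2, Inhba, Bmp4 and Id2. Those of Inhba, a ligand gene that differed between the resistant and lenvatinib groups, and Id2, a BMP target, are printed. They run 5′ to 3′ on the strand of the gene, so that their SMAD and E-box letters can be seen. Capitals mark GGCGCC, a GC-rich element known from BMP-responsive promoters, and CANNTG, the E-box whose binding proteins the ID proteins hold back.
Inhba (chr13:16011601-16011900, plus strand): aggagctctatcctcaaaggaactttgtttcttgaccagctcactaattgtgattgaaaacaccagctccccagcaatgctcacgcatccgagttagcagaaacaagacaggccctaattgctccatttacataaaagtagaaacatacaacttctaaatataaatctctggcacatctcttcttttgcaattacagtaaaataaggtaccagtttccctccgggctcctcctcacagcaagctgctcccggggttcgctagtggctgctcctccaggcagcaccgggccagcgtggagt
Id2 (chr12:25096043-25096342, minus strand): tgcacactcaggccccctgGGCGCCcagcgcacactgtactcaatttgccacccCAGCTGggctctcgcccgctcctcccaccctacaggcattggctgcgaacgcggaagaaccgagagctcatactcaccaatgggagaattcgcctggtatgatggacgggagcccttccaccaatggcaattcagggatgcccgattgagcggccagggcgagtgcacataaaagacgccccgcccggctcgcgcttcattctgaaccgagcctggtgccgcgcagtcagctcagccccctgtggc
In the Id2 window, the GGCGCC began at base -231 and a single E-box, CAGCTG, at base -196 from the start, with no overlap between them. The Inhba window, which stands at a start inside the annotated gene span, held neither motif. On either strand, GGCGCC was found in 11.9% and the E-box in 72.3% of all 32851 windows of this length. The palindromic SMAD box, GTCTAGAC, was found in 0.213% of the windows and in none of the 5. The Tgfb2 window held 1 E-box, the Bmp4 window 3 and the Tgfb1 window none. These matches describe letters in the windows and carry no information on binding.

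Per kilobase of exon, the BMP targets Id2 and Id1 were the most abundant members in the parental libraries. Id2 averaged 77.0 ± 38.2 CPM per kilobase and Id1 averaged 73.4 ± 7.46 CPM per kilobase (SD, n = 4 lines), and these 2 levels did not differ beyond their spread. Tgfb1 came next at 19.1 ± 10.03 CPM per kilobase, apart from Id1 above it and Bmp2 below it. Bmp2 at 4.04 ± 1.99, Smad7 at 3.72 ± 0.0886, Bmp4 at 2.90 ± 0.810 and Tgfb2 at 2.53 ± 1.08 CPM per kilobase followed. Of these, Bmp2 and Smad7, and Bmp4 and Tgfb2, differed by less than the larger SD of the pair, and Smad7 and Bmp4 by slightly more. Inhba and Tgfb3 were lowest, at 0.207 ± 0.101 and 0.197 ± 0.168 CPM per kilobase. Tgfb1 was thus the leading ligand transcript of the 6, and Tgfb3 and Inhba did not differ beyond their spread.

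The parental lines, with 1 library each, are described without a test. Smad7 varied least, with 16.6 CPM in SNU-6621, 16.4 CPM in SNU-6622, 16.5 CPM in SNU-6624 and 15.7 CPM in SNU-6625, a ratio of 1.06 between the highest and the lowest line. Id1 had 92.6, 82.0, 91.6 and 74.3 CPM in the same lines. Id2 had 326 CPM in SNU-6621, against 144, 157 and 123 CPM in the other lines in the same order. SNU-6621 was therefore high for Id2 among the parental lines, and it was also high for Tgfb1. Tgfb1 had 74.0 CPM in SNU-6621, against 33.3, 28.5 and 29.9 CPM in the other lines. Bmp2 was highest in SNU-6622, with 9.0, 23.6, 8.61 and 16.2 CPM in the same order of lines. Tgfb2 had 20.3, 7.38, 14.6 and 10.3 CPM and Bmp4 had 7.74, 5.39, 6.85 and 3.93 CPM. Inhba had 0.517 to 1.94 CPM and Tgfb3 had 0.202 to 1.49 CPM, with 10 to 89 counts behind Tgfb3, a ratio of 7.40 between lines. The ligand genes and Id2 thus ranged over 1.97- to 7.40-fold between lines, and Id1 and Smad7 over 1.25- and 1.06-fold.

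**Figure D1:**
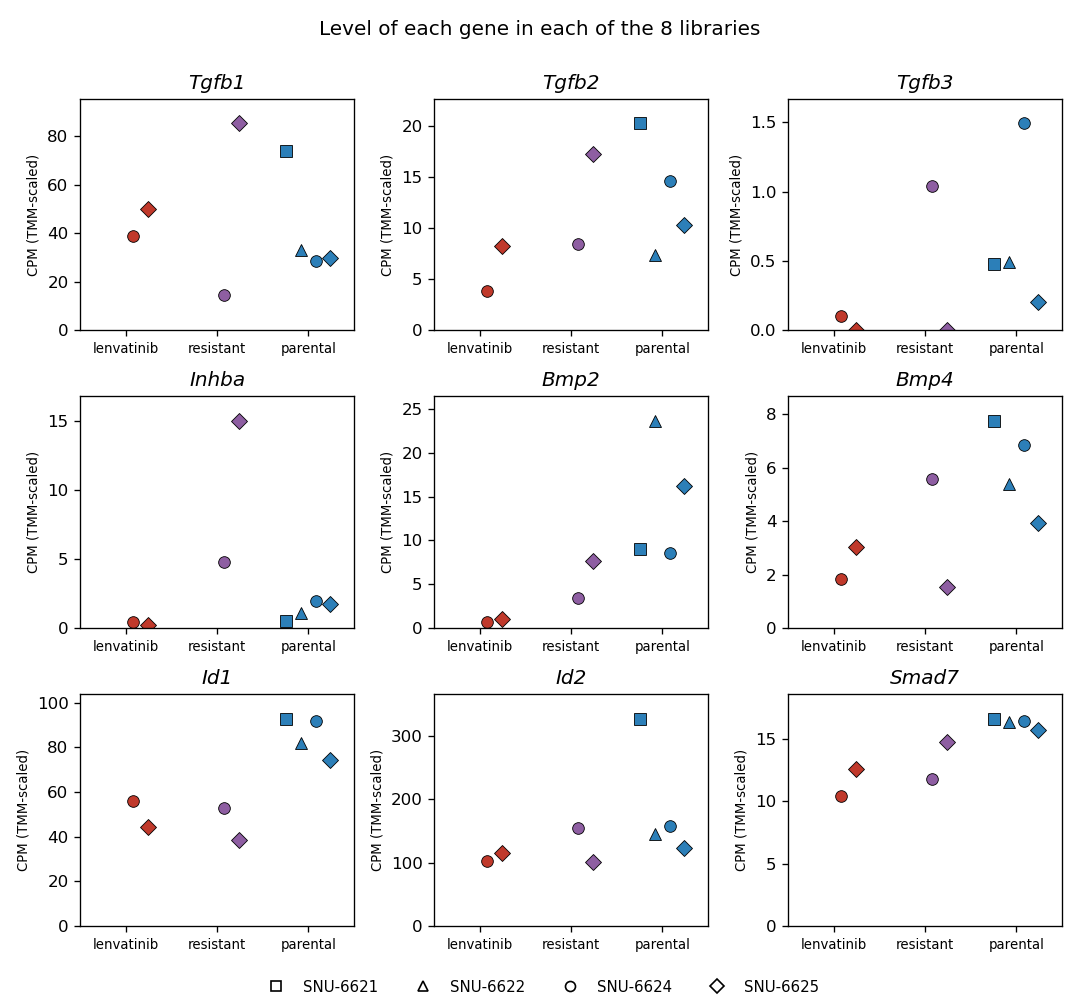
Level of each of the 9 genes in each library, in CPM after TMM scaling, on a linear axis for each gene, with lenvatinib, resistant and parental libraries from left to right, 1 point per library. Bmp2 lies at 0.708 and 1.03 CPM in the lenvatinib libraries and at 8.61 CPM or more in the 4 parental libraries.

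Exposure to lenvatinib went with less Bmp2 transcript than in the parental organoids of the same lines. Bmp2 fell to 0.708 CPM (SNU-6624) and 1.03 CPM (SNU-6625) in the lenvatinib libraries, against 8.61 and 16.2 CPM in the parental libraries of the same lines. Both lenvatinib values were below all 4 parental values. Bmp2 averaged 0.868 ± 0.227 CPM in the lenvatinib and 12.4 ± 5.36 CPM in the parental group (SD, n = 2 each), with a log2 fold change of -3.79 (SE 0.33, 95% CI -4.65 to -2.92, edgeR quasi-likelihood adjusted p = 0.0323). Within the lines, the log2 difference was -3.59 (SNU-6624) and -3.97 (SNU-6625). The epithelial keratin gene Krt19 was also lower, at 261 and 371 CPM in the lenvatinib and 2944 and 3043 CPM in the parental libraries. Krt7, Epcam, Prom1 and Spp1 of the same marker list were lower too. Cdh1 was higher, at 954 and 670 against 614 and 644 CPM, and so was Sox9, at 54.0 and 57.8 against 32.8 and 45.2 CPM. The part of the epithelial genes in the Bmp2 result was not tested. Bmp2 was the only member of the 9 that edgeR called (adjusted p under 0.05), where 5.78% of all tested genes were called, 1.70% as higher and 4.08% as lower. The call was lost, at little change in size, without the lenvatinib library of SNU-6624 (-4.03, adjusted p = 0.253) or SNU-6625 (-3.57, adjusted p = 0.212) and without the parental library of SNU-6624 (-3.82, adjusted p = 0.131) or SNU-6625 (-3.75, adjusted p = 0.183). In those 4 fits 0% of all genes were called.

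None of the other ligand genes passed the edgeR test in this comparison, although DESeq2, which called 20.5% of all genes, called Tgfb3 (-5.19, adjusted p = 0.0218) and Inhba (-2.50, adjusted p = 0.0050). Inhba had 0.414 and 0.236 CPM in the lenvatinib libraries (24 and 14 counts), against 1.94 and 1.73 CPM in the parental libraries of the same lines (116 and 86 counts). Its groups did not overlap, with a log2 fold change of -2.48 (SE 0.70, adjusted p = 0.102 by edgeR). Tgfb3 had 0.103 CPM in SNU-6624 and 0 counts in SNU-6625 under lenvatinib, against 1.49 and 0.202 CPM in the parental libraries. The lenvatinib libraries held 6 and 0 counts of Tgfb3 and the parental ones 89 and 10, so its fitted log2 fold change of -4.68 (SE 1.47, adjusted p = 0.118 by edgeR) rests on few reads. Tgfb2 had 3.83 and 8.27 CPM under lenvatinib, against 14.6 and 10.3 CPM in the parental libraries, a log2 fold change of -1.19 (SE 0.49, adjusted p = 0.182 by edgeR). The Tgfb2 difference was larger in SNU-6624 (-1.93) than in SNU-6625 (-0.32). Bmp4 had 1.85 and 3.04 CPM under lenvatinib, against 6.85 and 3.93 CPM in the parental libraries, again with a wider gap in SNU-6624 (log2 difference -1.89) than in SNU-6625 (-0.37), and an adjusted p of 0.381 by edgeR. Tgfb1 alone among the members had a positive fold change, with 38.9 and 50.1 CPM under lenvatinib, against 28.5 and 29.9 CPM in the parental libraries (log2 fold change 0.56, SE 0.64, edgeR adjusted p = 0.584). Parental SNU-6621, at 74.0 CPM, was above both lenvatinib libraries for Tgfb1.

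None of the target genes passed the edgeR threshold under lenvatinib, and Id1 came nearest to it. Id1 had 55.9 and 44.3 CPM in the lenvatinib libraries, against 91.6 and 74.3 CPM in the parental libraries. Both lenvatinib values were below all 4 parental values, and the log2 differences in the lines were close, at -0.71 and -0.75. The log2 fold change was -0.73 (95% CI -1.09 to -0.37), and the edgeR adjusted p of 0.056 missed the threshold. Id1 was called by DESeq2 (-0.75, adjusted p = 0.0069) and limma-voom (-0.73, adjusted p = 0.0477), which called 20.5% and 9.96% of all genes. Id2 had 102 and 116 CPM under lenvatinib, against 157 and 123 CPM in the parental libraries, and Smad7 had 10.4 and 12.6 CPM, against 16.5 and 15.7 CPM. Their log2 fold changes were -0.34 (SE 0.24, 95% CI -0.97 to 0.28) and -0.50 (SE 0.22, 95% CI -1.08 to 0.08), with edgeR adjusted p-values of 0.374 and 0.201. Neither interval excludes 0. After TMM scaling, the lenvatinib values and the parental values of the same lines overlapped for none of the 9 members. Of these, 8 were lower and Tgfb1 was higher, where 72.2% of all tested genes did not overlap. With scaling by library size alone the Id2 groups overlapped, at 104.9 and 125.9 CPM under lenvatinib and 155.4 and 124.8 CPM in the parental libraries. The median log2 fold change of the members was -0.98, beside -0.01 over all tested genes. At an unadjusted p under 0.05, 4 of the 9 were lower (Tgfb3, Inhba, Bmp2 and Id1), where 31.8% of all genes passed in either direction. Without the resistant library of SNU-6624 or that of SNU-6625, where 43.3% and 43.7% of all genes were called, edgeR called 6 of the 9, Tgfb3, Inhba, Bmp2, Id1 and Smad7 as lower and Tgfb1 as higher, at fold changes between -4.16 (Tgfb3) and 0.60 (Tgfb1).

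**Figure D2:**
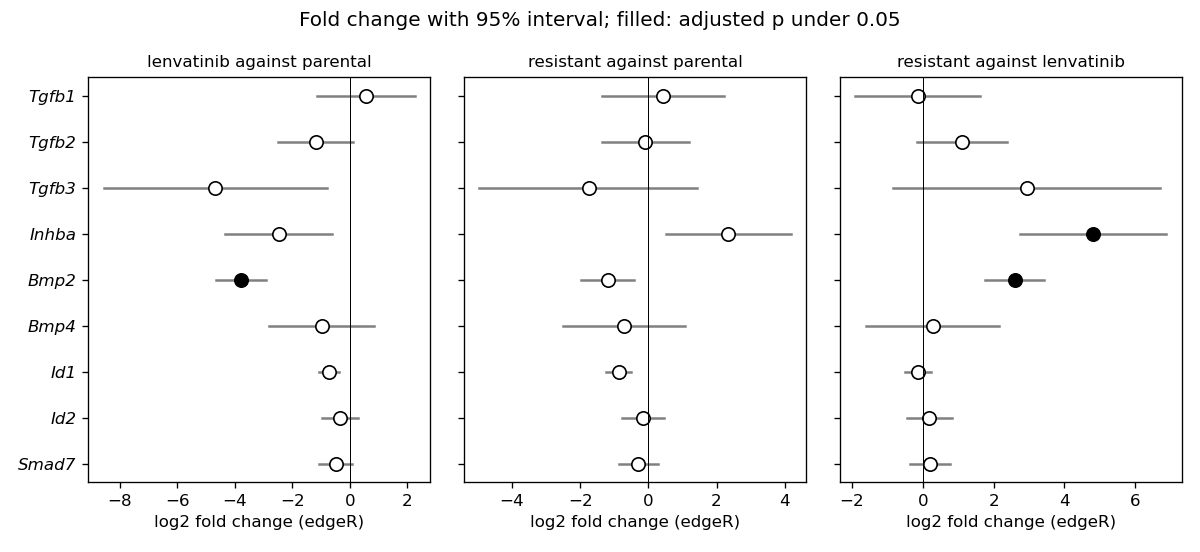
Fitted log2 fold change of each member in the 3 comparisons, with its 95% confidence interval, filled where the adjusted p is under 0.05. Bmp2 is filled at -3.79 in lenvatinib against parental and at 2.60 in resistant against lenvatinib, and Inhba at 4.82 in resistant against lenvatinib.

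Resistant organoids held more Inhba and Bmp2 transcript than organoids under lenvatinib. These values share the lenvatinib libraries with the comparison above, so the 2 comparisons are not independent. Inhba rose to 4.80 CPM (SNU-6624) and 15.0 CPM (SNU-6625) in the resistant libraries, against 0.414 and 0.236 CPM in the lenvatinib libraries. The 2 resistant libraries, with 244 and 805 counts, were the highest of all 8 libraries. Inhba averaged 9.89 ± 7.19 CPM in the resistant and 0.325 ± 0.126 CPM in the lenvatinib group (SD, n = 2 each), a log2 fold change of 4.82 (SE 0.78, 95% CI 2.76 to 6.88, edgeR adjusted p = 0.0457). Within the lines, the log2 difference was 3.51 (SNU-6624) and 5.94 (SNU-6625). Krt19 was also higher, at 5611 and 4165 CPM in the resistant and 261 and 371 CPM in the lenvatinib libraries. The other genes of the biliary and epithelial list were higher within both lines too, by unlike amounts. Cdh1, for example, had 971 and 2373 against 954 and 670 CPM. The part of these genes in the Inhba result was not tested. Inhba missed the threshold when all 8 libraries were fitted (adjusted p = 0.0522), with only the 4 compared libraries (adjusted p = 0.0673) and with no filter on low counts (adjusted p = 0.0642). It also missed it without the lenvatinib library of SNU-6624 or SNU-6625 (adjusted p = 0.248 and 0.284) or the parental library of SNU-6624 or SNU-6625 (adjusted p = 0.095 and 0.0903), where the fold change was 4.07 to 5.60. Of all genes, 0% were called without a lenvatinib library, and 0.503% and 0.657% without a parental library.

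Bmp2 rose to 3.48 and 7.65 CPM in the resistant libraries, against 0.708 and 1.03 CPM in the lenvatinib libraries. Both resistant values were above both lenvatinib values and below all 4 parental values. Bmp2 averaged 5.56 ± 2.94 CPM in the resistant and 0.868 ± 0.227 CPM in the lenvatinib group (SD, n = 2 each), a log2 fold change of 2.60 (SE 0.31, 95% CI 1.77 to 3.43, edgeR adjusted p = 0.0348). The log2 differences of 2.29 and 2.88 in the 2 lines were alike in sign and size. The call was lost without the line term (2.68, adjusted p = 0.0554), with only the 4 compared libraries (adjusted p = 0.0927, 1.45% of all genes called), without the lenvatinib library of SNU-6624 or SNU-6625 (adjusted p = 0.261 and 0.280) and without the parental library of SNU-6624 or SNU-6625 (adjusted p = 0.0964 and 0.0993).

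The remaining members were not called between resistant and lenvatinib organoids. Tgfb2 had 8.46 and 17.3 CPM in the resistant libraries, against 3.83 and 8.27 CPM in the lenvatinib libraries, with near equal log2 differences of 1.14 and 1.06 in the lines (edgeR adjusted p = 0.211). Tgfb1 had differences of opposite sign in the 2 lines, which were not tested against each other. It had 14.6 CPM in resistant and 38.9 CPM in lenvatinib SNU-6624, the lowest of all libraries being resistant SNU-6624, and it had 85.4 CPM in resistant and 50.1 CPM in lenvatinib SNU-6625, the highest being resistant SNU-6625. Its log2 fold change was -0.14 (SE 0.66, adjusted p = 0.909 by edgeR), and it was called as higher without resistant SNU-6624 (0.85, adjusted p = 0.00993, 34.9% of all genes called) and as lower without resistant SNU-6625 (-1.49, adjusted p = 0.00309, 33.0% of all genes called). Bmp4 had 5.59 CPM in resistant and 1.85 CPM in lenvatinib SNU-6624, but 1.53 CPM in resistant and 3.04 CPM in lenvatinib SNU-6625. Tgfb3 had 53 counts in resistant and 6 in lenvatinib SNU-6624, and 0 in both libraries of SNU-6625, and was called without resistant SNU-6625 (3.50, adjusted p = 0.0280). Among the targets, Id1 had 52.6 and 38.5 CPM in the resistant libraries, against 55.9 and 44.3 CPM in the lenvatinib libraries (log2 fold change -0.14, 95% CI -0.50 to 0.22). Id2 had 154 and 101 CPM in the resistant libraries, against 102 and 116 CPM in the lenvatinib libraries, and Smad7 had 11.8 and 14.8 CPM, against 10.4 and 12.6 CPM. The groups of all 3 targets overlapped, and their edgeR adjusted p-values were 0.527 to 0.628. Of the 9 members 2 were called, both higher, where 6.23% of all tested genes were called, 4.14% as higher and 2.08% as lower. The groups did not overlap for 3 members, Tgfb2, Inhba and Bmp2, all higher in the resistant libraries, where 57.1% of tested genes did not overlap. For Tgfb2 the gap was narrow, with 8.46 CPM in resistant SNU-6624 and 8.27 CPM in lenvatinib SNU-6625. With scaling by library size alone these values were 8.51 and 9.01 CPM, and the Tgfb2 groups overlapped.

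**Figure D3:**
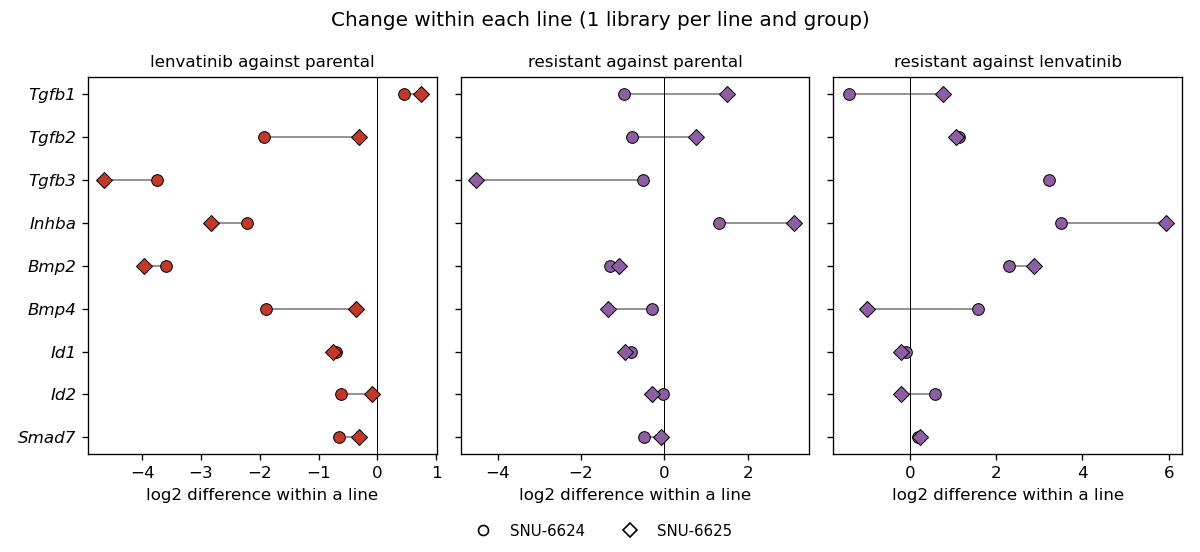
Log2 difference of each member within line SNU-6624 and within line SNU-6625, for the 3 comparisons, with 0.5 added to each count, and with the point of a line left out where both libraries had at most 3 counts. In resistant against lenvatinib, Inhba (3.51 and 5.94) and Bmp2 (2.29 and 2.88) lie to the right of 0 in both lines, and Tgfb1 (-1.41 and 0.77) and Bmp4 (1.59 and -0.99) lie on opposite sides.

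Against the parental organoids, no member of the resistant group passed the edgeR test, and none of the 17038 genes did (0% called). At an unadjusted p under 0.05, 15.9% of all genes and 3 of the 9 members passed, Inhba as higher and Bmp2 and Id1 as lower. limma-voom called 0% of genes, and DESeq2 called 6.70% of the 16182 genes with an adjusted p, among them those 3 members. Inhba had 4.80 and 15.0 CPM in the resistant libraries, against 1.94 and 1.73 CPM in the parental libraries of the same lines. The other parental lines were at 0.517 and 1.10 CPM, so both resistant libraries were above all 4 parental ones. Its log2 fold change was 2.34 (SE 0.69, 95% CI 0.52 to 4.17, edgeR adjusted p = 0.267, DESeq2 adjusted p = 0.0165). Bmp2 had 3.48 and 7.65 CPM in the resistant libraries, against 8.61 and 16.2 CPM in the parental libraries, a log2 fold change of -1.19 (SE 0.29, adjusted p = 0.248 by edgeR, DESeq2 adjusted p = 0.0342). Id1 had 52.6 and 38.5 CPM in the resistant libraries, against 91.6 and 74.3 CPM in the parental libraries, a log2 fold change of -0.87 (SE 0.14, 95% CI -1.23 to -0.51, edgeR adjusted p = 0.247, DESeq2 adjusted p = 0.00423). The log2 differences of Id1 in the lines were -0.80 and -0.95, and both resistant values were below all 4 parental values. Without resistant SNU-6624, where 32.3% of all genes were called, edgeR called Inhba (3.22, adjusted p = 0.00183), Bmp2 (-1.02, adjusted p = 0.0267), Id1 (-0.95, adjusted p = 0.00471) and Tgfb1 (1.43, adjusted p = 0.0023), and without resistant SNU-6625, where 3.26% were called, it called Id1 (-0.81, adjusted p = 0.0435).

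The other members were not called in this comparison by edgeR with all 6 libraries. Tgfb1 had 14.6 and 85.4 CPM in the resistant libraries, against 28.5 and 29.9 CPM in the parental libraries, with log2 differences of -0.96 (SNU-6624) and 1.51 (SNU-6625). Tgfb2, at 8.46 and 17.3 CPM in the resistant and 14.6 and 10.3 CPM in the parental libraries, was likewise lower in SNU-6624 (-0.78) and higher in SNU-6625 (0.75). Bmp4 had 5.59 and 1.53 CPM in the resistant libraries, against 6.85 and 3.93 CPM in the parental libraries, and resistant SNU-6625 was the lowest of the 8 libraries for Bmp4. Tgfb3 had 53 and 0 counts in the resistant and 89 and 10 counts in the parental libraries. Id2 had a log2 fold change of -0.15 (95% CI -0.77 to 0.47) and Smad7 of -0.29 (95% CI -0.87 to 0.29). Members whose groups did not overlap numbered 4, Inhba as higher and Bmp2, Id1 and Smad7 as lower, where 47.6% of all genes did not overlap. The median log2 fold change was -0.29, beside -0.01 over all tested genes. The lenvatinib and resistant comparisons with the parental group share the parental libraries. Set side by side, Id1 had log2 fold changes of -0.73 under lenvatinib and -0.87 in resistant organoids, Bmp2 had -3.79 and -1.19, and Inhba had -2.48 and 2.34.

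The direction of the fitted fold change of no member changed with scaling by library size alone or by the DESeq2 size factors. Library size alone moved the median log2 fold change of all genes by 0.08, -0.08 and -0.16 in lenvatinib against parental, resistant against parental and resistant against lenvatinib. It also moved the split of the calls, to 427 higher and 556 lower genes in lenvatinib against parental (289 and 696 with TMM), and to 596 higher and 663 lower genes in resistant against lenvatinib (706 and 355 with TMM).

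A wider list of 96 pathway genes held 70 that were tested. In lenvatinib against parental organoids 1 of the 70 was called as higher and 4 as lower, with a median log2 fold change of -0.26. In resistant against parental none was called by edgeR (12 higher and 5 lower at an unadjusted p under 0.05, which 15.9% of all genes passed, and 8 of 66 by DESeq2, which called 6.70% of all genes), with a median of 0.10. Of resistant against lenvatinib values, 3 were called as higher and 1 as lower, with a median of 0.32, beside 0.02 over all tested genes. The 5 calls under lenvatinib and 4 calls in resistant against lenvatinib stand beside 5.78% and 6.23% of all genes called. No wider-list gene was called in either comparison without any 1 of the lenvatinib or parental libraries, where at most 0.657% of all genes were called. Without resistant SNU-6624, 38 of 71 list genes were called in lenvatinib against parental (43.3% of all genes) and 33 of 71 in resistant against lenvatinib (34.9%). Without resistant SNU-6625, these were 37 of 71 (43.7%) and 29 of 71 (33.0%). With only the 4 compared libraries, 37 of 68 were called in lenvatinib against parental (48.3% of all genes) and 0 of 64 in resistant against lenvatinib (1.45%).

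Among 14 other ligand genes tested, Bmp6 rose and Bmp8b fell under lenvatinib. Bmp6, which encodes a regulator of hepcidin, had 65.8 and 18.9 CPM under lenvatinib, against 17.0 and 3.59 CPM in the parental libraries of the same lines (log2 fold change 2.15, SE 0.30, edgeR adjusted p = 0.0422). It fell in resistant against lenvatinib, with 13.2 and 5.64 CPM in the resistant libraries (log2 fold change -2.01, SE 0.30, edgeR adjusted p = 0.0413). Bmp6 thus went the other way from Bmp2 in both comparisons, which share the lenvatinib libraries. Bmp8b had 23.0 and 36.2 CPM under lenvatinib, against 167 and 242 CPM in the parental libraries (log2 fold change -2.79, SE 0.39, edgeR adjusted p = 0.0422), but only 0.554 CPM in parental SNU-6621. Between resistant and parental organoids, Lefty1 (1.26, adjusted p = 0.315 by edgeR) and Inha (-2.36, adjusted p = 0.330) had the largest fold changes among list genes reaching 5 CPM and were not called.

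Among receptors and transducers none of 12 receptor genes and none of 5 SMAD genes was called in any comparison by edgeR with all 6 libraries. At an unadjusted p under 0.05 by edgeR, 1 receptor gene was higher and 4 were lower in lenvatinib against parental, where 31.8% of all genes passed. In resistant against parental 3 were higher and 1 was lower, where 15.9% of all genes passed. In resistant against lenvatinib 3 receptor genes were higher and 1 was lower, and 1 SMAD gene was higher, where 30.4% of all genes passed. The type II TGF-beta receptor gene Tgfbr2 had 530.0 and 769 CPM in the resistant libraries, against 315 and 295 CPM in the lenvatinib libraries (log2 fold change 1.07, SE 0.24, edgeR adjusted p = 0.0693), and 344 to 432 CPM in the parental libraries. Rgmb, which encodes a BMP co-receptor, had 18.3 and 12.2 CPM in the resistant libraries, against 35.8 and 37.6 CPM in the lenvatinib libraries (-1.29, SE 0.23, edgeR adjusted p = 0.0515). Smad3 had 354 ± 266 CPM in the resistant, 220 ± 3.90 CPM in the lenvatinib and 163 ± 6.35 CPM in the parental libraries of the same lines (SD, n = 2 each), and its spread was widest between the resistant lines.

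Of 14 inhibitor genes tested, 2 fell under lenvatinib. Chrd, which encodes chordin, a secreted BMP antagonist, had 1.83 and 2.34 CPM under lenvatinib, against 14.6 and 14.3 CPM in the parental libraries (log2 fold change -2.79, SE 0.30, edgeR adjusted p = 0.0361). It had 8.82 and 7.24 CPM in the resistant libraries, higher than under lenvatinib (1.94, SE 0.29, edgeR adjusted p = 0.0413). Parental SNU-6621, at 2.23 CPM, was in the range of the lenvatinib libraries for Chrd. Tgif2, a nuclear repressor of TGF-beta responses, had 0.173 and 0.186 CPM under lenvatinib, against 2.11 and 2.76 CPM in the parental libraries (-3.75, SE 0.51, edgeR adjusted p = 0.0415). Of resistant against parental values, Fstl3 (-1.53) and Smad6 (-1.43) had edgeR adjusted p-values of 0.423 and 0.407. Their log2 differences were -3.19 and -2.91 in SNU-6625, but only -0.45 and -0.33 in SNU-6624.

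Of 8 tested genes of TGF-beta latency and activation, 2 rose in resistant against lenvatinib organoids. Thbs1, which encodes thrombospondin 1, an activator of latent TGF-beta, had 3317 and 3036 CPM in the resistant libraries, against 500.3 and 529 CPM in the lenvatinib libraries (log2 fold change 2.62, SE 0.30, edgeR adjusted p = 0.0335) and 972 to 1909 CPM in the parental libraries. Itgb6, the beta subunit of an epithelial integrin that activates latent TGF-beta, had 21.3 and 34.4 CPM in the resistant libraries, against 7.33 and 6.49 CPM in the lenvatinib libraries (1.98, SE 0.29, edgeR adjusted p = 0.0404). In resistant against parental these genes were not called; Itgb6 had a log2 fold change of 1.30 (adjusted p = 0.247) and Ltbp1 of 1.62 (adjusted p = 0.312).

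Among BMP-SMAD targets other than Id1 and Id2, all 7 tested genes had negative fold changes under lenvatinib, where 49.6% of all tested genes had positive ones, and none was called by edgeR (3 lower at an unadjusted p under 0.05, which 31.8% of all genes passed). Within SNU-6625, however, Msx2 was higher under lenvatinib (log2 difference 0.21). Few counts lay behind Id4 (2 and 7), Atoh8 (2 and 8) and Msx2 (4 and 39) in the lenvatinib libraries. Some genes of this list, such as Smad6, are also on the list of inhibitors. Id3 had 5.44 and 7.69 CPM under lenvatinib, against 22.8 and 14.5 CPM in the parental libraries (log2 fold change -1.54, SE 0.38, edgeR adjusted p = 0.0821). Smad6, an inhibitory SMAD of the BMP branch, had 2.43 and 1.67 CPM under lenvatinib, against 11.6 and 8.75 CPM in the parental libraries (-2.35, SE 0.75, adjusted p = 0.123). The medians were -1.54 in lenvatinib against parental, -1.14 in resistant against parental, where 3 genes were positive and 4 negative, and 0.61 in resistant against lenvatinib. The median in resistant against parental is that of Msx2, which had 7 and 11 counts in the resistant and 15 and 28 counts in the parental libraries, and Id4 and Atoh8 also had few counts. The hepcidin gene Hamp was at 0 counts in 6 of the 8 libraries and was not tested. Id3 was not called in resistant against lenvatinib, where it had 16.3 and 23.8 CPM in the resistant libraries (1.61, SE 0.38, edgeR adjusted p = 0.0749). Among 16 tested TGF-beta-SMAD targets, 1 fell under lenvatinib, 9 had positive and 7 negative fold changes, and the median was 0.27. Tgfbi, a matrix protein gene, had 0.604 and 1.69 CPM under lenvatinib, against 6.49 and 27.5 CPM in the parental libraries (-3.71, SE 0.52, edgeR adjusted p = 0.0422). Pmepa1, an inhibitor of TGF-beta signalling that was chosen after its values were seen, had 0 counts in both lenvatinib libraries. With each lenvatinib library put at 3 counts, it was 8.13-fold lower than in the parental libraries of the same lines. Those held only 28 and 18 counts, whose error was left out. Pmepa1 was not called (edgeR adjusted p = 0.0671). Fst and Gdf10, of the inhibitor and ligand lists, also had 0 counts in both lenvatinib libraries. They were 3.67- and 6.13-fold lower by the same rule and were not called. Between resistant and parental organoids, Tgfbi had a log2 fold change of -1.88 and was not called (adjusted p = 0.250 by edgeR).

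**Figure D4:**
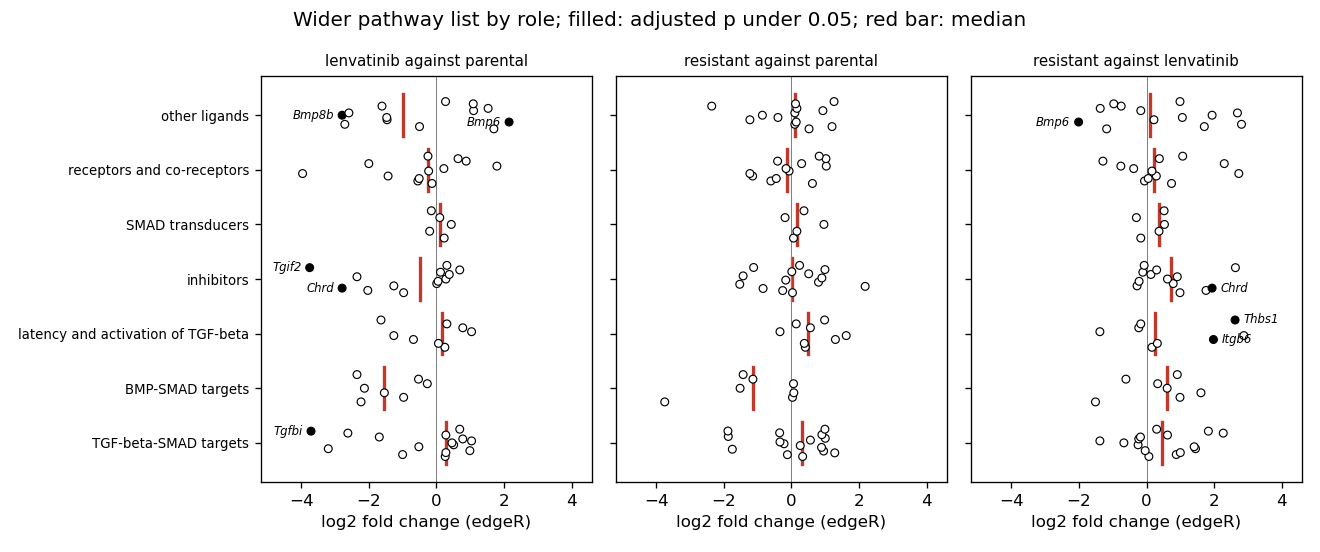
Fitted log2 fold change of each tested gene of the wider pathway list, by role, in the 3 comparisons, with filled points for adjusted p under 0.05 and a red bar at the median of all tested genes of the role. Genes at 0 counts in both libraries of a group are not drawn. The red bar of the BMP-SMAD targets lies at -1.54 in lenvatinib against parental.

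The genes most like each member in their pattern over the 8 libraries were found by the root mean square difference of scaled log2(CPM + 1) profiles among 13344 genes with a mean of at least 1 CPM. Inhba was most like Filip1l (0.111) and Lmna (0.118). Bmp2 was most like Fut2 (0.133) and Atp2a3 (0.158), and Id2 was most like Ntf5 (0.102) and Mir205hg (0.107). The closest profiles to Tgfb1 were Ccdc17 (0.226) and Zbtb6 (0.251), to Tgfb2 Zfp1 (0.288) and Il11ra1 (0.301), to Bmp4 Rom1 (0.235) and 5031425E22Rik (0.244), to Id1 Gm33721 (0.196) and LOC108167553 (0.200), and to Smad7 Gm9222 (0.232) and Tmem14a (0.265). Tgfb3 did not reach the mean of 1 CPM. Between members the nearest pair was Bmp2 and Smad7, at 0.457. This gap cannot be set against the neighbours above, which were picked from among 13344 genes and not from the members alone. All 8 libraries share the scaling, and this likeness is a description with no test.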

How the data were processed

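RNA was extracted with Trizol and columns and made into stranded poly(A) libraries, per the labels' protocols. Per the file headers, the deposited files hold whole-number read counts for genes listed by NCBI number. The submitters' processing notes name build mm10, HISAT2 2.1.0, StringTie 2.1.3b, Bowtie2 2.3.4.1, Trimmomatic 0.38 and FastQC 0.11.7. The counting step is not given in the sources used here. Multi-biotics libraries, which the series text mentions, were not analysed here.

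From the counts, edgeR 4.0.16 (R 4.3.3) fitted group and line over 6 libraries (SNU-6624, SNU-6625), scaled by TMM and filtered by filterByExpr (17038 genes), and quasi-likelihood F tests were adjusted by Benjamini-Hochberg over all genes. Adjusted p under 0.05 was called. Standard errors were derived as the size of the fold change over the root of the F value. Degrees of freedom were 2 residual and 2.53 prior, with a biological coefficient of variation at 0.336. Line, which pairs the libraries since both lines enter each group, was a term, and deviations of the libraries of 1 line from their group means correlated at 0.591 (lenvatinib and parental), 0.281 (resistant and parental) and 0.274 (resistant and lenvatinib). No 2 libraries held identical values. DESeq2 1.42.0 and limma-voom (limma 3.58.1) were alternatives. Only the edgeR fit of lenvatinib against parental was tested on simulated counts, which held no difference between lines. Changes were set in genes of higher counts, so genes as low as Tgfb3 were not covered, nor were DESeq2 and limma-voom.

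Members, lists and tests were chosen with earlier results of these data known. All 9 members were named. From the wider list, called genes were named, up to 4 per role by adjusted p, or else the 2 largest fold changes among genes reaching 5 CPM in either group, and the text gives part of these.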

Additional observations from a re-analysis of the deposited data

Results flagged for a closer look

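In the 4 parental lines, SNU-6621 stood far from the others for Tgfb1, at 74.0 CPM, with a gap to the next line of 0.895 of the whole range, and for Id2, at 326 CPM, with a gap of 0.833 of the range. Both gaps passed Dixon's critical value at the 95% level for 4 samples, which chance passes in about 1 of 20 groups. The share of all genes for which SNU-6621 passes this value was not counted. Whether its distance is particular to Tgfb1 and Id2 therefore cannot be told. SNU-6621 entered no fit to the 6 libraries. Of the platelet and megakaryocyte genes, it held 283.6 CPM of Ppbp and 15.4 CPM of Itga2b, more than the other parental lines. Its Pf4, at 0.665 CPM, was above SNU-6624 (0.335 CPM) but below SNU-6622 (0.840 CPM) and SNU-6625 (2.60 CPM), and its Gp9 was at 0. The part of these genes in the Tgfb1 and Id2 levels was not tested.

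Some members differed in direction between the lines, each from 1 library per group and line, and the difference itself was not tested. In resistant against parental, Tgfb1 had log2 differences of -0.96 (SNU-6624) and 1.51 (SNU-6625), and Tgfb2 had -0.78 and 0.75. In resistant against lenvatinib, Tgfb1 had -1.41 and 0.77, Bmp4 had 1.59 and -0.99, and Id2 had 0.59 and -0.20. The Id2 difference in SNU-6625 is the smallest of these. The resistant library of SNU-6624 enters both Tgfb1 comparisons, with the lowest Tgfb1 level of the 8 libraries, at 14.6 CPM.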

How the results depend on the processing

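Of the alternatives to the members' 27 fold changes, 341 kept direction and side of the threshold, 30 passed it newly, 17 lost it and 16 reversed. Bmp2 ranged from -4.03 to -3.57 in lenvatinib against parental (called in 11 of 15 alternatives), and in resistant against lenvatinib from 2.39 to 2.84 (9 of 15), and Inhba from 3.70 to 5.75 (8 of 15). With no replicate block (group alone), resistant against lenvatinib had 1 called member and 8 called wider-list genes (6.57% of all genes called), and Tgfb2 in resistant against parental (0.05) and Tgfb1 in resistant against lenvatinib (0.17) reversed; the other comparisons changed no count by over 1.5 times.

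Called members and wider-list genes, with the share of all genes called in the same fit, were, in lenvatinib against parental, 6 and 37 with only the 4 compared libraries (48.3%), 4 and 18 with DESeq2 (20.5%), 2 and 9 with limma-voom (9.96%), 0 wider genes with no low-count filter (0.700%), and 2 members with at least 1 CPM in 2 libraries (9.89%). In resistant against parental they were 3 and 8 with DESeq2 (6.70%). In resistant against lenvatinib they were 1 member with all 8 libraries (4.01%), 0 and 0 with only the 4 compared libraries (1.45%), 20 wider genes with DESeq2 (21.1%), 8 with limma-voom (9.31%), and 1 and 1 with no filter (1.30%). Leaving out each library in turn, where an arm with 1 library is assumed to vary like the others, gave 0 to 6 members and 0 to 38 wider genes in lenvatinib against parental, 0 to 4 and 0 to 34 in resistant against parental, and 0 to 4 and 0 to 33 in resistant against lenvatinib. The larger counts came without a resistant library, and the cause was not tested.

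Reversals were, in resistant against parental, Tgfb2 with limma-voom (0.06), without resistant SNU-6624 (0.30) and without parental SNU-6624 (0.76), Tgfb1 (-0.89), Bmp4 (0.02) and Id2 (0.09) without resistant SNU-6625, and Tgfb1 (-0.32) without parental SNU-6625. With each library left out, these ranged from -0.89 to 1.43 (Tgfb1), -0.81 to 0.76 (Tgfb2), -1.79 to 0.02 (Bmp4) and -0.43 to 0.09 (Id2). For resistant against lenvatinib, Tgfb1 (0.28), Bmp4 (-0.69) and Id2 (-0.12) reversed without lenvatinib SNU-6624, and Tgfb1 (0.85), Tgfb3 (-2.20), Bmp4 (-0.64) and Id2 (-0.06) without resistant SNU-6624. The ranges were -1.49 to 0.85 (Tgfb1), -2.20 to 4.06 (Tgfb3), -0.69 to 1.39 (Bmp4) and -0.12 to 0.56 (Id2). Depth limits Tgfb3 and, under lenvatinib, Inhba.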
